A study of Mus musculus with 6 samples.

Results

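The genes examined here encode the voltage-gated calcium (CaV) and sodium (NaV) channels, the hyperpolarization-activated HCN channels, the TRPC, TRPM and TRPV channels, the calcium release channels of the endoplasmic reticulum (ER) and the store-operated calcium entry proteins. Members were picked by gene name alone (Cacna, Cacnb, Cacng, Scn, Hcn, Trpc, Trpm, Trpv, Itpr, Ryr, Orai and Stim genes with a number), and no measured value entered the choice. Of the 22969 gene names in the deposited mRNA table, 75 met the rule. RNA came from E14Tg2a, a line of mouse Embryonic Stem Cells (ESCs), at passages 37 to 40. The ESC group (3 samples) was kept pluripotent with leukemia inhibitory factor (LIF), and the group called Neuronal Cells (NCs, 3 samples) was grown as monolayers without LIF in 1 µM Retinoic Acid (RA) for 48 h. Both groups are 1 cell line without a transgene or other treatment named in the labels, and each NC sample is a mixed population at a single time.

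Each gene has a single FPKM for the ESC group and a single one for the NC group, pooled over the samples of the group when the table was made. FPKM counts the fragments assigned to a gene, scaled to the length of its transcript and to the fragments mapped in the library. No values of single samples were analysed here, so no SD or n stands beside a value, no test of NCs against ESCs was run, and every difference below lacks a replicate check. A gene was set against its own value in the other condition as a plain ratio, was read only when the mean of both FPKM values was at least 0.5, and was called higher or lower in NCs from a 2-fold ratio onwards. In bulk RNA, fewer cells of a type and less RNA per cell cannot be told apart.

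Voltage-gated channels open when the membrane potential changes and pass calcium or sodium into excitable cells. Each CaV channel is built around a pore-forming α1 subunit, which in many but not all types the α2δ and β subunits bring to the cell surface and tune. HCN channels open on hyperpolarization and drive rhythmic firing, and TRP channels respond to lipids, ions, temperature or stretch. In cells that do not fire, calcium signals come mostly from the ER, where IP3 receptors release stored calcium and the Stim sensors then open Orai channels in the plasma membrane to refill the store.

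The labels were checked against marker genes. All 7 ESC markers were at least 2-fold lower in NCs, Pou5f1 at 832 FPKM in ESCs and 37.1 in NCs, and all 5 RA response markers were higher, Cyp26a1 at 0.874 and 215 FPKM. Of 6 neural progenitor markers, 4 were higher in NCs, among them Pax6 at 3.64 and 65.2 FPKM, 1 was lower (Fabp7 at 1.11 and 0.421 FPKM) and Nes lay within 2-fold. No neuron marker above the level limit followed the name of the NC group. Of 8 neuron markers 5 passed it, 0 were higher and 2 were lower in NCs (Tubb3 at 33.4 and 7.54 FPKM, Elavl3 at 5.03 and 0.632). Under the limit, Dcx was higher in NCs, at 0.014 FPKM in ESCs and 0.334 in NCs. Snap25 (0.573 and 0.204 FPKM) and Syt1 (0.444 and 0.381 FPKM), also under it, were lower. The list sum was 45.0 FPKM in ESCs, most of it Tubb3, and 13.1 in NCs. Markers of other cell types were also read: 3 of 4 endoderm markers above the limit were higher in NCs (list sum 7.16 and 18.5 FPKM), 3 of 4 fibroblast markers were higher and 1 was lower (19.9 and 41.0 FPKM), 1 of 2 glia markers was higher (2.54 and 3.53 FPKM), and of 2 endothelium and blood markers 1 was higher and 1 lower (25.7 and 4.50 FPKM). Pecam1, the lower one, made most of the endothelium and blood sum, at 24.7 and 2.79 FPKM. Kdr, the higher one, was at 0.339 and 0.697 FPKM. The part of these other cell types in the channel values was not tested. Summed over the table, FPKM came to 770592 for ESCs and 628679 for NCs. Over the 11715 genes at 1 FPKM or more in both conditions, the median log2 ratio of NC to ESC was -0.05.

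Of the 75 channel genes, 37 (49.3%) passed the level limit, against 60.7% of all genes. Among these 37, 7 were higher in NCs (18.9%), where 12.6% of all 13952 genes above the limit were higher. A further 8 were lower (21.6%), against 10.7% of all genes. The remaining 22 lay within 2-fold. The median log2 ratio of the 37 was -0.2, and that of all genes above the limit was -0.03. When both columns were rescaled to the same total, which adds 0.29 to each log2 ratio, 8 channel genes were higher (background 18.0%) and 2 were lower (background 7.38%), so the balance between the directions depends on the scale. The summed level of all 75 genes was 225 FPKM in ESCs and 220 in NCs. At a 4-fold limit, 3 channel genes were higher (background 4.98%), among them Cacna1s and Cacnb2, and 1 was lower (background 3.65%), Trpm1. Of the 15 called genes, 5 stayed past 2-fold under all 4 changes of scale or pseudocount that were tried, among them Cacna1s, Cacnb2, Cacna1g and Trpm1.

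**Figure D1:**
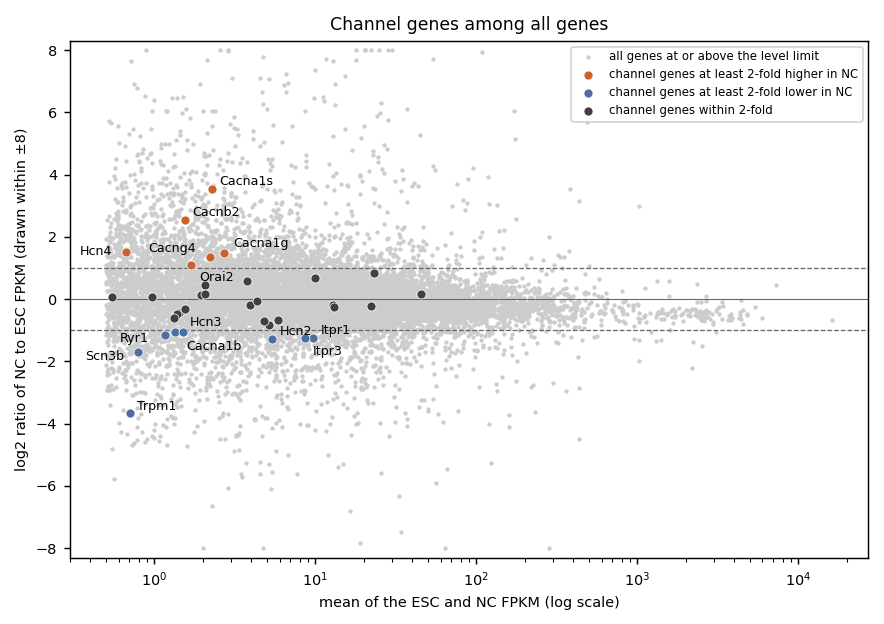
Log2 ratio of NC to ESC FPKM (vertical axis, drawn within ±8) against the mean of both FPKM values (horizontal axis, log scale) for all genes above the level limit (grey) and for channel genes above it that are described in the text, coloured by call. The dashed lines mark the 2-fold limit. The channel genes drawn beyond either line have means under 10 FPKM, and Cacna1s and Trpm1 lie farthest from 0.

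The promoters of the called genes were read for short motifs that RA signalling, pluripotency factors and neural or muscle factors are known to use. RefSeq promoters on GRCm38.p6 reach from 250 bases before the start of transcription to 50 bases after it, and 59 of the 75 members had one, including 9 of the 15 called genes. Both strands were searched. The nuclear receptor site AGGTCA was found in the promoters of Orai2, Trpm1 and Hcn2, as it was in 16.3% of all 32851 promoters of the same length. The octamer ATGCAAAT was found in that of Itpr3 (1.74% of all promoters), and the E-box CAGCTG in those of Cacna1s, Cacnb2 and Cacna1b (16.3% of all promoters). Members that were not called had these motifs too. Of the 59, AGGTCA was in 10, the octamer in 2 and the E-box in 20. Counted by gene over all genes, the shares were 18.1%, 1.97% and 18.3%. No tie between a motif and a call is read. The stretches around the motifs of the called genes are shown because all 7 genes were past 2-fold. Each is written 5′ to 3′ on the strand of its gene, with the motif in capitals. In Hcn2 and Itpr3 the capitals hold the motif of the opposite strand. The Trpm1 match belongs to a start inside the annotated span of the gene, which begins at chr7:64153835.
Orai2, chr5:136170731-136170752, minus strand, motif at -88: agctattcAGGTCAcgtggtcc
Trpm1, chr7:64185432-64185453, plus strand, motif at -19: tgggagccAGGTCAcgaggctg
Hcn2, chr10:79716458-79716479, plus strand, motif at -168: gggctgacTGACCTtgagcctg
Hcn2, second match, chr10:79716384-79716398, plus strand, motif at -249: gTGACCTtgggttcg
Itpr3, chr17:27057269-27057292, plus strand, motif at -27: caggcgggATTTGCATgtgtgtgg
Cacna1s, chr1:136052680-136052701, plus strand, motif at -123: aggaatgaCAGCTGcctggccg
Cacnb2, chr2:14604062-14604083, plus strand, motif at -236: acgggccgCAGCTGagtcggag
Cacnb2, second start, chr2:14823963-14823984, plus strand, motif at -121: ttctgagcCAGCTGacgtaatt
Cacna1b, chr2:24763147-24763168, minus strand, motif at -8: tgcggtagCAGCTGgcgggcga
An exact spelling of the RA receptor element, a direct repeat of AGGTCA with a gap of 5 bases, was in no member promoter. It was in only 3 of all 32851 promoters (0.00913%), so its absence from the members says nothing about them. Other spellings and gaps were not searched. The cyclic AMP element TGACGTCA (1.79% of all promoters) and TTCAGCACC, a part of the site of the neuronal repressor REST (0.371%), were in no member promoter either. The GC box GGGCGG was found in 35.7% of all promoters and, counted by gene, in 38.2% of genes. It was in 30 of the 59 members with a promoter and in 8 of the 9 called ones, all but Trpm1. The other called genes had no promoter entry, so 8 of 9 is not read as a result about the called genes. A match describes letters only, and because 78.7% of members had a promoter, no share over the members is read.

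The 3 classes of pore-forming CaV α1 genes differed in direction. The L-type genes, whose channels couple excitation to contraction and to transcription, summed to 0.587 FPKM in ESCs and 4.90 in NCs, 8.35-fold more. The T-type genes, whose channels open near the resting potential, summed to 3.38 and 6.12 FPKM. The P/Q-, N- and R-type genes, whose channels trigger transmitter release at synapses, summed to 6.04 and 4.57 FPKM. As parts of the whole α1 sum (10.0 FPKM in ESCs and 15.6 in NCs), the P/Q-, N- and R-type class made 60.4% in ESCs and 29.3% in NCs, the L-type class 5.87% and 31.4%, and the T-type class 33.7% and 39.3%. The directions of the class sums were the same after rescaling to the same total. The P/Q-, N- and R-type sum was then only 1.08-fold lower in NCs, against 1.32-fold as deposited.

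Cacna1s, the α1 subunit of the L-type channel of skeletal muscle, had the largest ratio of all members in the NC direction. It was at 0.361 FPKM in ESCs and 4.20 in NCs, 11.6-fold higher, and was the highest α1 gene in NCs, close to Cacna1g at 3.99 FPKM. It made 61.5% of the L-type sum in ESCs and 85.6% in NCs. The gene lies at chr1:136052750-136119822 on the plus strand, and 20.0% of its exon bases are shared with Gm37759, an antisense transcript. The library kit was not described as marking strand, so reads from this transcript cannot be told apart from those of Cacna1s. Striated muscle markers showed no such difference. Of 7 such markers 2 passed the level limit, 0 were called in either direction, and their summed level was 4.91 FPKM in ESCs and 3.93 in NCs, with Myod1 at 0.135 and 0.117 FPKM and Myog at 0.156 and 0.0687 FPKM.

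The cardiac and neuronal L-type gene Cacna1c stayed under the level limit, at 0.112 FPKM in ESCs and 0.523 in NCs. Cacna1d, an L-type gene of neurons and endocrine cells, was at 0.0818 and 0.177 FPKM, and Cacna1f, the retinal L-type gene, at 0.0321 and 0.00714 FPKM. Among the T-type genes, Cacna1g was at 1.42 FPKM in ESCs and 3.99 in NCs, 2.81-fold higher. Its close relative Cacna1h stayed within 2-fold at 1.88 and 2.04 FPKM, so the order of the pair turned between the conditions. The third T-type gene, Cacna1i, was at 0.0772 and 0.0894 FPKM.

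The presynaptic gene Cacna1b, which encodes the N-type channel, was lower in NCs, at 1.82 FPKM in ESCs and 0.886 in NCs. Its ratio of 2.06-fold lies just past the limit and fell within it under each of the 4 changes of scale or pseudocount. Cacna1a, which encodes the P/Q-type channel, was the highest α1 gene in ESCs and lay within 2-fold at 4.19 and 3.65 FPKM. The R-type gene Cacna1e was at 0.0273 and 0.0419 FPKM.

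**Figure D2:**
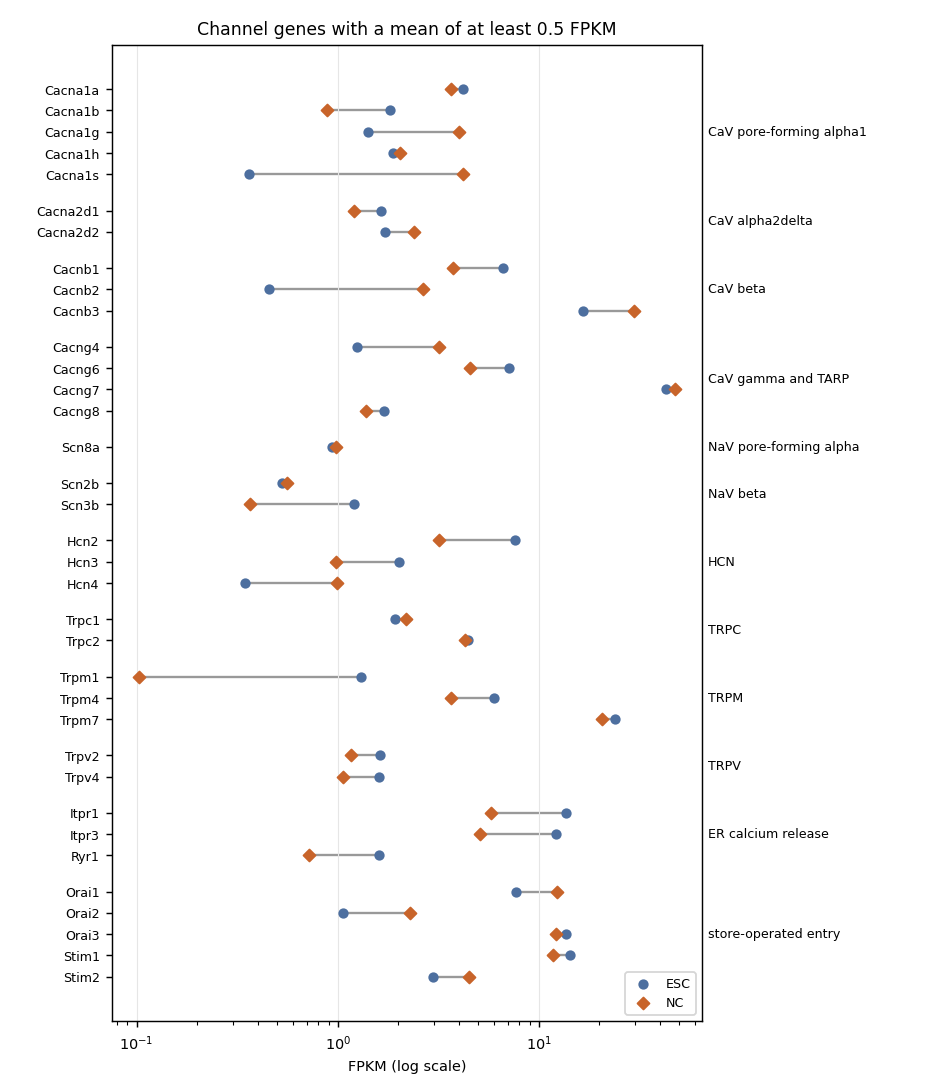
FPKM (horizontal axis, log scale) in ESCs (circles) and NCs (diamonds) for channel genes above the level limit that are described in the text, grouped by role, with a grey bar joining the values of 1 gene. The longest bars belong to Trpm1, Cacna1s and Cacnb2, and Cacng7 is the farthest to the right at 42.7 and 47.6 FPKM.

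The β subunits, which bind the α1 pore inside the cell, summed to 23.7 FPKM in ESCs and 36.3 in NCs. Cacnb2, a β subunit best known from heart, was at 0.455 FPKM in ESCs and 2.65 in NCs, 5.81-fold higher. Cacnb3 was the most abundant β gene in both conditions and was at 16.5 and 29.8 FPKM, 1.80-fold higher and just under the limit. After rescaling to the same total, Cacnb3 was more than 2-fold higher. Cacnb1, the β subunit of skeletal muscle, differed in the other direction at 6.61 and 3.74 FPKM, 1.77-fold lower. Of the β sum, Cacnb1 made 27.9% in ESCs and 10.3% in NCs, Cacnb2 1.92% and 7.29%, and Cacnb3 69.8% and 81.9%. The muscle α1 gene Cacna1s and its usual β partner Cacnb1 thus had ratios in opposite directions. Cacnb4 was low at 0.0892 and 0.174 FPKM.

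Neither of the α2δ genes above the limit was called. Cacna2d1, the target of gabapentin in neurons, was at 1.65 FPKM in ESCs and 1.20 in NCs, and Cacna2d2 was at 1.72 and 2.39 FPKM. Cacna2d3 and Cacna2d4 were at most 0.107 FPKM in either condition.

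The γ genes include the TARPs, which carry AMPA receptors to synapses. Cacng7, a TARP, was the most abundant of all members, at 42.7 FPKM in ESCs, where it exceeded 89.8% of all genes, and 47.6 in NCs. It made 80.1% of the γ sum in ESCs and 83.4% in NCs. Cacng4, another TARP, was called higher in NCs, at 1.25 and 3.18 FPKM, 2.54-fold higher. Cacng6 and Cacng8 lie next to Cacng7 on chromosome 7, with gaps of 22.5 kb from Cacng7 to Cacng8 and 8.55 kb from Cacng8 to Cacng6. They did not share its level: Cacng6 was at 7.13 and 4.53 FPKM and Cacng8 at 1.69 and 1.38 FPKM. On chromosome 11, Cacng4 lies between Cacng1 and Cacng5, which were under the level limit at 0.0642 and 0.0498 FPKM and at 0.450 and 0.302 FPKM. Cacng3 was the one member listed at 0, in ESCs, and had 0.0204 FPKM in NCs. Cacng2, which encodes stargazin, was at 0.0268 and 0.0156 FPKM.

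NaV α subunits were low throughout, and 2 of 9 passed the level limit. Scn8a, a sodium channel of neurons, was level at 0.939 and 0.982 FPKM. The 7 genes under the limit were at most 0.128 FPKM in either condition. Scn10a and Scn11a, sodium channels of sensory neurons that lie 34.4 kb apart on chromosome 9, were at no more than 0.0168 FPKM. Scn10a did not exceed the level that 3 fragments would give in either condition.

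The NaV β subunits are small proteins that modulate the pore and act in cell adhesion. Of 4 genes 3 passed the level limit, 0 were higher and 1 was lower. Scn3b was the lower one, at 1.21 FPKM in ESCs and 0.368 in NCs, 3.28-fold lower. Scn2b was level at 0.53 and 0.559 FPKM, and its neighbour Scn4b, 8.32 kb away on chromosome 9, was at 0.0702 and 0.0522 FPKM.

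All 3 HCN genes above the level limit were called, in both directions. Hcn2, a pacemaker channel of brain and heart, was the most abundant of the family, at 7.61 FPKM in ESCs and 3.17 in NCs, 2.40-fold lower. Hcn3 was at 2.02 and 0.981 FPKM, 2.06-fold lower, and like Cacna1b fell within the limit under each change of scale or pseudocount. Hcn4, the main pacemaker channel of the sinoatrial node, was at 0.346 and 0.994 FPKM, 2.87-fold higher. The family sum was 10.0 FPKM in ESCs and 5.19 in NCs, and Hcn4 made 3.46% of it in ESCs and 19.2% in NCs, while Hcn2 made 76.1% and 61.0%. Of the exon bases of Hcn3, 17.1% are shared with Pklr on the opposite strand (0.752 and 1.21 FPKM), and the part of Pklr reads in the Hcn3 value was not tested. After rescaling to the same total, Hcn2 and Hcn3 stayed lower but within 2-fold.

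**Figure D3:**
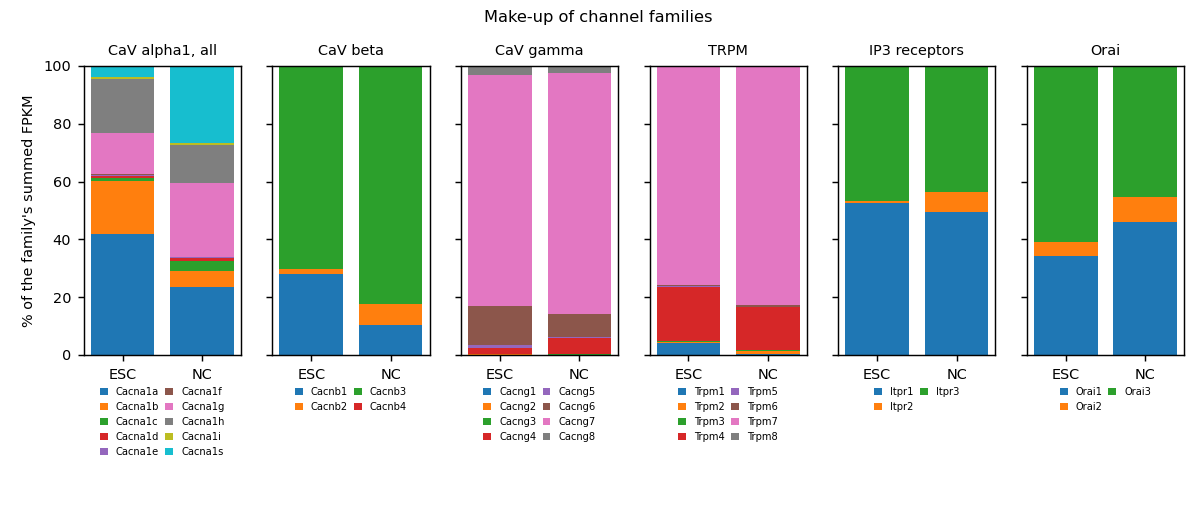
Each bar divides the summed FPKM of 1 channel family in ESCs or NCs among its genes, in percent (vertical axis). Cacna1s and Cacnb2 take larger parts in NCs than in ESCs, Cacng7 and Trpm7 make most of the γ and TRPM sums in both, and the IP3 receptors Itpr1 and Itpr3 keep nearly equal parts of a sum that was 26.1 FPKM in ESCs and 11.7 in NCs.

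TRPM genes held the largest difference in the other direction. Trpm1, a channel of retinal bipolar cells and melanocytes, was at 1.31 FPKM in ESCs and 0.103 in NCs, 12.7-fold lower. The lower value still stood for about 37 fragments, the fewest behind any called value. Trpm7, a channel joined to a kinase that carries magnesium and calcium in most cells, was the most abundant of the TRPC, TRPM and TRPV genes at 24.0 and 20.6 FPKM and made 75.9% and 82.7% of the TRPM sum. The calcium-activated sodium channel gene Trpm4 was at 5.97 and 3.64 FPKM. Trpm2, Trpm3, Trpm5, Trpm6 and Trpm8 were all under 0.25 FPKM.

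No TRPC or TRPV gene above the level limit was called. Trpc1 was at 1.93 FPKM in ESCs and 2.18 in NCs. Trpc2, a channel of the vomeronasal organ, was at 4.44 and 4.28 FPKM, but 97.5% of its exon bases lie also in Xntrpc, a longer gene on the same strand, so the value cannot be given to Trpc2 alone. Trpv2 was at 1.63 and 1.16 FPKM and Trpv4, a channel gated by osmotic swelling and warmth, at 1.61 and 1.06 FPKM. The capsaicin receptor gene Trpv1 and its neighbour Trpv3, 6.14 kb apart on chromosome 11, were at 0.017 and 0.0297 FPKM and at 0.111 and 0.0432 FPKM.

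All 3 calcium release genes above the level limit were lower in NCs. Itpr1 was at 13.7 FPKM in ESCs and 5.79 in NCs, 2.36-fold lower, and Itpr3 at 12.2 and 5.10 FPKM, 2.39-fold lower. These IP3 receptors open when IP3 formed at the plasma membrane reaches the ER. Ryr1, the ryanodine receptor that Cacna1s gates in skeletal muscle, was at 1.61 and 0.724 FPKM, 2.22-fold lower. Itpr2 differed in the other direction, at 0.185 and 0.801 FPKM, but its mean of 0.493 FPKM lay just under the level limit (the next gene above it was Scn2b, with a mean of 0.544). The IP3 receptors summed to 26.1 FPKM in ESCs and 11.7 in NCs, and Itpr2 made 0.711% and 6.85% of that sum. The ryanodine receptors summed to 2.23 and 0.907 FPKM, with all 3 genes lower in NCs. After rescaling to the same total the IP3 receptors were 1.82-fold and the ryanodine receptors 2.01-fold lower as sums, and Itpr1, Itpr3 and Ryr1 were within 2-fold.

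Store-operated entry genes were all above the level limit, and 1 of 5 was called. Orai2, a pore subunit, was at 1.06 FPKM in ESCs and 2.29 in NCs, 2.16-fold higher. Orai1, the main pore subunit, was at 7.71 and 12.3 FPKM and Orai3 at 13.7 and 12.1 FPKM. Orai3 was therefore the highest Orai gene in ESCs (61.0% of the sum) while Orai1 and Orai3 were nearly equal in NCs (46.1% and 45.3%). Of the calcium sensors, Stim1 was at 14.2 and 11.8 FPKM and Stim2 at 2.99 and 4.49 FPKM, and their sum, 17.2 FPKM in ESCs and 16.3 in NCs, was higher in NCs after rescaling to the same total.

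Below the level limit lay 38 members, of which 12 had a mean of 0.1 to 0.5 FPKM. Of these 12, 5 were at least 2-fold higher in NCs, where 31.2% of all 2233 genes in that range were higher, and 2 were lower, against 20.3%. Among the 5 were Cacna1c (4.67-fold), Itpr2 (4.32-fold), Trpm2 (0.0924 and 0.235 FPKM, 2.55-fold) and Cacna1d (2.16-fold). The 2 lower ones were ryanodine receptors. Ryr3 was at 0.287 FPKM in ESCs and 0.0501 in NCs, 5.72-fold lower, and Ryr2, the receptor of heart, at 0.336 and 0.133 FPKM, 2.53-fold lower. Aven, on the opposite strand, shares 4.83% of the exon bases of Ryr3 and was itself at 18.5 and 11.0 FPKM. The remaining 26 members had means under 0.1 FPKM and are not compared further. Of them, Scn10a and Trpm8 lay at or under the level of 3 fragments in both conditions, and Cacng3, Trpc6 and Trpv5 in 1.

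**Figure D4:**
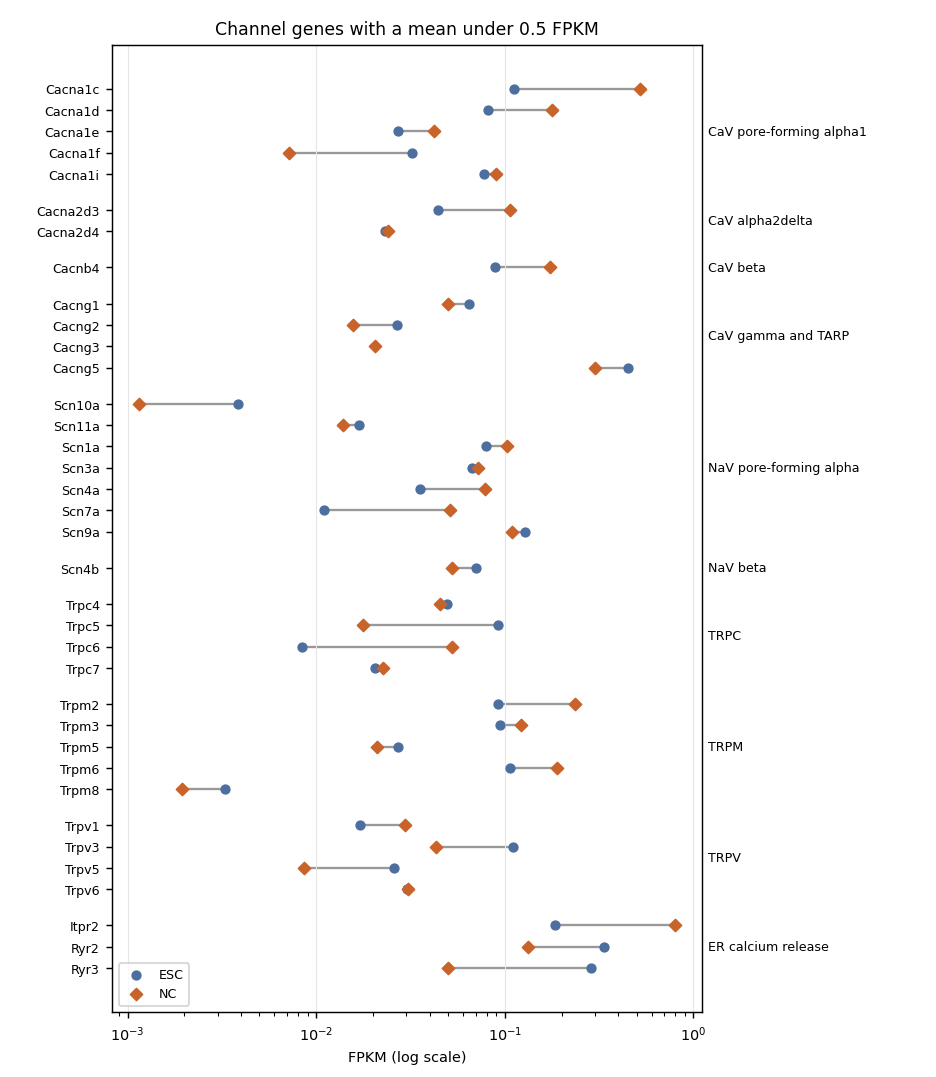
FPKM (horizontal axis, log scale) in ESCs (circles) and NCs (diamonds) for channel genes with a mean under 0.5 FPKM, some of them not named in the text, grouped by role. Cacng3, listed at 0 in ESCs, has no ESC point. Most genes lie under 0.1 FPKM in both conditions, and the values farthest to the right are those of Itpr2 and Cacna1c in NCs.

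The members above and below the level limit differed in gene length. The median span was 45.3 kb for those above it and 114 kb for those below it, while over all genes it was 22.3 kb above the limit and 9.62 kb below it, so the order among the channel genes was the reverse of that among all genes. Spans came from GENCODE M21, where 93.8% of all genes above the limit and 91.9% of those below it were found. This is a description across genes, which are not independent of each other.

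The proteins that move calcium with these channels were read from lists of genes, against the same backgrounds of 12.6% higher and 10.7% lower. Unless the full list is named, counts take in only the listed genes found by name. Of the calcium pumps and exchangers, 8 of 12 passed the limit, 1 was higher in NCs and 0 were lower. The higher one was the plasma membrane pump Atp2b1, at 12.7 and 30.8 FPKM, while Atp2a2, which pumps calcium into the ER, was the most abundant at 89.0 and 71.1 FPKM. Of the ER store and junction genes, 13 of 17 passed, 0 were higher and 1 was lower, Hrc (1.17 and 0.406 FPKM), a calcium-binding protein of muscle ER. The store proteins Calr (276 and 233 FPKM) and Canx (194 and 133 FPKM) had the highest ESC values of that list, and in NCs Fkbp1a (184 and 188 FPKM) and Hspa5 (167 and 169 FPKM) stood above Canx. All 4 stayed within 2-fold, as did the junction gene Jph1 at 3.14 and 1.72 FPKM. Of the 11 listed mitochondrial uptake genes, only 6 were found by name, Vdac1, Vdac2 and Vdac3 among them. All 6 passed, 0 were higher and 1 was lower, the outer membrane pore Vdac1, at 436 and 212 FPKM. Its log2 ratio of -1.04 became -0.75 after rescaling to the same total. Vdac2 was at 201 and 141 FPKM.

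The list for IP3 generation, which feeds the IP3 receptors, also holds Itpka, Itpkb, Itpkc and Inpp5a, whose products consume IP3. Its genes differed in both directions, and no direction of IP3 supply is read from the counts. Of 16 genes 15 passed the limit, 3 were higher in NCs and 4 were lower. The phospholipase genes Plcb1 (0.191 and 0.992 FPKM), Plce1 (0.69 and 3.56 FPKM) and Plch1 (1.63 and 7.48 FPKM) were the higher ones. Lower in NCs were Plch2 (1.05 and 0.202 FPKM), Plcg2 (26.4 and 10.6 FPKM), Plcd1 (15.9 and 6.68 FPKM, within 2-fold after rescaling to the same total) and the IP3 kinase Itpka (3.84 and 0.685 FPKM). The most abundant phospholipase genes, Plcb3 (38.7 and 28.0 FPKM) and Plcg1 (35.7 and 33.5 FPKM), lay within 2-fold.

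Among calcium channel partners 10 of 14 passed the limit, 2 were higher and 1 was lower. Gem (0.538 and 1.46 FPKM) and Rem1 (0.340 and 0.898 FPKM), small GTPases that hold CaV channels back through their β subunits, were the higher ones. Stac2, an adaptor of L-type channels, was at 15.9 and 5.86 FPKM, 2.71-fold lower. Calmodulin, which CaV and NaV channels bind, was abundant throughout, with Calm2 at 388 and 412 FPKM and Calm3 at 165 and 130 FPKM.

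Of the sodium channel partners and other sodium carriers, 12 of 20 passed the limit, 0 were higher and 4 were lower. Among the lower ones were 2 β subunits of the sodium pump, Atp1b1 at 56.6 and 11.1 FPKM (5.10-fold) and Atp1b2 at 22.8 and 5.81 FPKM (3.92-fold). The β subunit, Atp1b3, stayed within 2-fold at 72.9 and 85.1 FPKM. The log2 ratio of Atp1b2 was -1.97, so adding the 0.29 of rescaling to the same total left it more than 2-fold lower. Of the other TRP and mechanosensitive channels, 9 of 12 passed, 1 was higher and 0 were lower. Piezo2, the touch receptor, was at 0.258 and 1.11 FPKM, 4.30-fold higher, while Piezo1 (21.3 and 15.8 FPKM) and the lysosomal channel Mcoln1 (25.9 and 20.4 FPKM) were the most abundant and Tpcn1 was at 7.63 and 13.3 FPKM. Over the 7 lists, 7 genes were higher, 11 lower and 55 within 2-fold as deposited. After rescaling to the same total, 13 were higher, 9 lower and 51 within 2-fold. The shares over all genes above the limit moved in the same way, from 12.6% to 18.0% higher and from 10.7% to 7.38% lower.

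**Figure D5:**
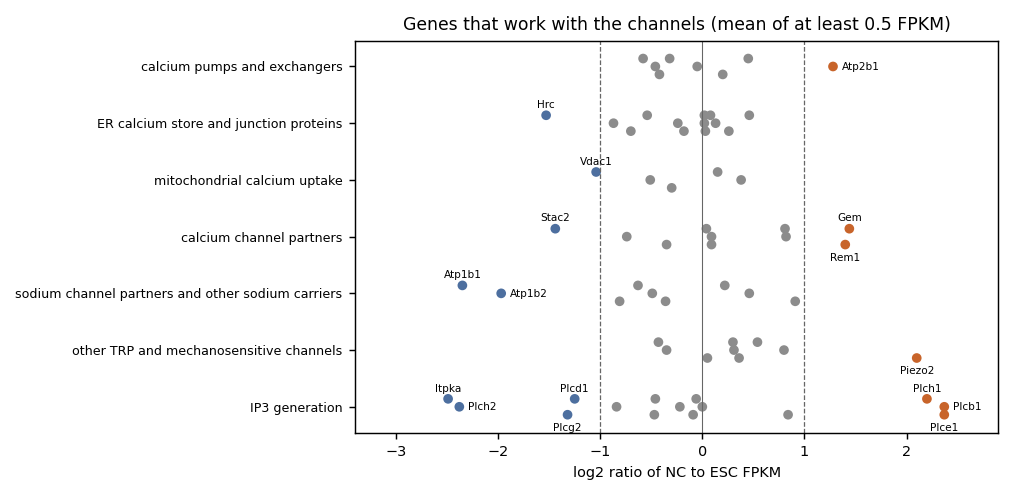
Log2 ratio of NC to ESC FPKM (horizontal axis) for genes of 7 lists that work with the channels and have a mean of at least 0.5 FPKM, 1 point per gene, with called genes named; genes not reported here are left out. Dashed lines mark the 2-fold limit. The sodium pump subunits Atp1b1 and Atp1b2 lie to the left of the lower limit, and the IP3 generation list has genes beyond both limits.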

How the data were processed

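RNA was sequenced from 3 ESC and 3 NC samples, prepared with the TruSeq kit and run on an Illumina HiSeq. The authors aligned reads to mm10 with Bowtie2 2.1.0 through TopHat2 2.0.8, used Cufflinks 2.0.2, Cuffmerge and Cuffdiff, and deposited 1 FPKM value per gene and condition. The NC heading is spelled FPK, which was read as FPKM. The authors' fold changes, statistics and p-values in the same table were not used. Where a name had several of the 23235 lines, the line with the largest mean was taken.

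Depth per sample is unknown. Among the lowest values of genes with 1 transcript, steps of 0.012 and 0.0138 FPKM (ESCs) or 0.00715 and 0.0136 FPKM (NCs) marked 1 fragment in 1 kb, at a fragment length set to 200 bases. The level of 3 fragments uses the larger step and covers counting error only. Positions came from GENCODE M21 (GRCm38) and promoters from RefSeq.

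Members were taken by a rule on gene names that uses no measured value. The rule and the lists were set with earlier results of these data known. Named were members past 2-fold or nearest to it, the highest of each group, those listed at 0, and in each other list the 2 highest genes and the 2 with the largest ratios; further genes were chosen after their values were seen. Some of these genes are not reported here and not drawn, while counts include them. Alternatives were other pseudocounts, level limits, scales and fold limits. The calling step was tested on simulated data with planted differences well past 2-fold, so ratios near the limit were not tested. Python 3.11.15, numpy 2.4.6, pandas 2.3.3 and matplotlib 3.10.9 were used.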

Additional observations from a re-analysis of the deposited data

How the results depend on the processing

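The counts of 7 higher and 8 lower channel genes and their median log2 ratio of -0.2 were recomputed under each alternative. With a pseudocount of 1, 4 were higher and 4 lower. Without a level limit (74 genes), 17 were higher and 15 lower, with a median of -0.02. At a mean of at least 0.1 FPKM, 12 were higher and the median was -0.05. After rescaling to the same total, 2 were lower, Cacnb3 joined the higher ones and the median was 0.09, with all genes at 0.25. At 1.5-fold, 13 were lower. At 4-fold, 3 were higher and 1 was lower. The other counts stayed within 1.5 times the reported ones. Shares over all genes were worked out for the main setting, 4-fold and the same total only, so the other counts are not read as results. Of all genes from 0.1 to under 0.5 FPKM, 31.2% were higher and 20.3% lower, against 12.6% and 10.7% above the level limit. Of the 15 called genes, 6 lay within 2-fold after rescaling (Cacna1b, Hcn2, Hcn3, Itpr1, Itpr3 and Ryr1), 2 after centring or with a pseudocount of 0.1 (Cacna1b and Hcn3), and 7 with a pseudocount of 1 (Cacna1b, Cacng4, Hcn3, Hcn4, Orai2, Ryr1 and Scn3b). A limit of 1 FPKM dropped Hcn4, Scn3b and Trpm1. No paired analysis was possible because the table carries 1 value per condition, and no replicate could be left out for the same reason.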

Other observations

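Some genes of the lists had large ratios at levels under the limit and were picked after their values were seen. Slc8a1, the sodium-calcium exchanger of heart, was at 0.0551 FPKM in ESCs and 0.573 in NCs. Stac, an adaptor of L-type channels, was at 0.0647 and 0.631 FPKM, in the direction opposite to its relative Stac2. Casq2, the calcium buffer of cardiac ER, was at 0.304 and 0.0281 FPKM. Scn2a1, the older symbol of a neuronal sodium channel that the name rule does not take in, was at 0.0319 and 0.0816 FPKM. These values have no replicate check.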
